A study of Mus musculus with 3 samples.

Results

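The metallothionein genes Mt1, Mt2 and Mt3 were followed across cell classes and libraries in single-cell RNA sequencing of the mouse retina. They were chosen by name, as the metallothionein rows of the matrix, and are 3 of its 18545 genes. Earlier results of these data were known when they were chosen, so counts of members past a fold are a description. Mt4 was not analysed here. Metallothioneins are small cytosolic proteins that hold zinc and copper ions through clusters of cysteines, buffer free metal and take up oxidants. Mt1 and Mt2 are made in many tissues and are switched on by zinc through the metal-sensing transcription factor MTF1, and also by glucocorticoids and by inflammatory cytokines. Mt3 is found mainly in the central nervous system and responds little to metals. In the retina, Müller glia (MG) and the retinal pigment epithelium are known sources of metallothionein.

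Dark-reared mice of 8 weeks on a C57BL/6J background gave retinas that were dissociated with papain, and each of 3 groups yielded 1 droplet library of 3′ tags. The WT group pooled mice of both sexes on plain chow, and the rd10-vehicle group pooled female rd10 mice on plain chow. The rd10-TMB group pooled female rd10 mice on chow with tamsulosin, metoprolol and bromocriptine, a blocker of alpha-1 receptors, a blocker of beta-1 receptors and a dopamine receptor agonist. The rd10 mice lose their photoreceptors because of a point mutation in the rod phosphodiesterase gene Pde6b. By the labels, a library pooled 1 retina from each of 4 mice, but fewer rd10 mice are stated in the methods of the study. With 1 pooled library per group there was no replicate and no test between groups, and whole-library comparisons with WT also differ in sex, so WT cells with a female expression pattern are compared apart. Each interval below is a 95% counting interval, which covers counting error only and describes these libraries, not the conditions. Where 3 values are given in a row, they stand in the order WT, rd10-vehicle, rd10-TMB.

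The libraries held 4478 to 5952 cells with medians of 3509.5 to 4811.5 unique molecular identifiers (UMIs) per cell, and 25 cell barcodes occurred in more than 1 library. The 21 clusters were the authors' own, and 17 of them could be named from marker genes. The names were rebuilt here and may differ from those of the study. Over all libraries the MG-like class was the largest, and it carried 12 of 12 MG markers. It held 530, 2492 and 1748 cells, which was 11.8%, 41.9% and 36.3% of the cells of each library. For each class of a library, the UMIs of its cells were added up and expressed per 1000000 UMIs of that class (CPM). A UMI marks 1 captured transcript whatever its length, so levels of different genes were set side by side without a length correction.

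The coding sequences are shown because they carry the feature that defines the family and the differences between its members. All 3 genes lie on the plus strand of chromosome 8 of mm10, Mt3 at chr8:94152607-94154146, Mt2 at chr8:94172664-94173568 and Mt1 at chr8:94179082-94180327. Mt2 ends 5513 bases before Mt1 begins, and Mt3 ends 18517 bases before Mt2 begins. In GENCODE, the main transcript of each has 3 exons, each with coding bases. In the following sequences, read from the GENCODE transcripts of GRCm38, capitals mark the cysteine codons TGC and TGT.
Mt1: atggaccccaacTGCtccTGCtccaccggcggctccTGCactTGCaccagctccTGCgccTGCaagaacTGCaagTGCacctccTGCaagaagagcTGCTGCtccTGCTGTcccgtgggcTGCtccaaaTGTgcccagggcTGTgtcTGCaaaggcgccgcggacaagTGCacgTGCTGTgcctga
Mt2: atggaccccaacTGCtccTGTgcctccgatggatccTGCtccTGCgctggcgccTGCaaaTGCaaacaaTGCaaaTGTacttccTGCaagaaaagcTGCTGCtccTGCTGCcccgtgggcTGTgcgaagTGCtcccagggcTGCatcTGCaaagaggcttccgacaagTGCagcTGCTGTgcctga
Mt3: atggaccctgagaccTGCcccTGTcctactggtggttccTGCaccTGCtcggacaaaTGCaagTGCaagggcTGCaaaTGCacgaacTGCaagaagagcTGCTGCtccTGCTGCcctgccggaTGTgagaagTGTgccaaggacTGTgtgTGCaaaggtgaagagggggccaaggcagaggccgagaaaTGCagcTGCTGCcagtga

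Each of the 3 sequences holds 20 cysteine codons, 16 of them TGC and 4 TGT. That is 32.8% of the 61 codons of Mt1 and of Mt2, and 29.4% of the 68 codons of Mt3. All 20 cysteine codons fall at the same positions in Mt1 and Mt2, whose coding bases were 79.6% identical. Mt3 was 66.2% identical to Mt1 and 67.6% to Mt2 over 207 aligned columns. The longest run of identical bases was 20 between the Mt1 and Mt2 transcripts and 27 between those of Mt1 and Mt3. After the stop codon, where 3′ tags mostly fall, no identical run between members was longer than 10 bases.

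The bases before the starts of Mt1 and Mt2 are shown because both genes differed between libraries in the same direction in MG-like cells. They are the 250 bases before the RefSeq start in GRCm38.p6, at chr8:94178839-94179088 for Mt1 and chr8:94172368-94172617 for Mt2, both on the plus strand. Capitals mark matches, on either strand, to the core of the metal response element that MTF1 binds, searched as TGCACNC or TGCGCNC.
Mt1: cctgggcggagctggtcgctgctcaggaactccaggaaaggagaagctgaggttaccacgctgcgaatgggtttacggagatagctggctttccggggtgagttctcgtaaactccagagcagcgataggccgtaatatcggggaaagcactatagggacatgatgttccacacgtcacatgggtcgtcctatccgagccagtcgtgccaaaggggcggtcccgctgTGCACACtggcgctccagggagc
Mt2: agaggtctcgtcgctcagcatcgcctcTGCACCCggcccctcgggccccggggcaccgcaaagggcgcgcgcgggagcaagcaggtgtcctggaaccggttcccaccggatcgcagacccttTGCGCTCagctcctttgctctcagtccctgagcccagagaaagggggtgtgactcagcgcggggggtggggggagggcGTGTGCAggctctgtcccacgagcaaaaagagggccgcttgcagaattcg

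Mt2 had 3 matches, Mt1 had 1 and Mt3 had 0 in its own 250 bases. Mt1 has several annotated starts, and which of them is used in these cells was not tested, so its window may not be the promoter in use. The GENCODE start of Mt2 also lies past the end of its window, and the bases between were not searched. At least 1 match occurred in 21.4% of 32851 promoter windows of this length, and 3 or more in 1.26%. The antioxidant response core TGACNNNGC occurred once in the Mt2 window and not in those of Mt1 and Mt3, against 10.2% of all windows. The STAT motif TTCNNNGAA, which reads the same on both strands, occurred in none of the 3 windows, against 7.02% of all windows. Of the 3 annotated starts of Mt1, the last lies farther on, and the 152 bases from its RefSeq start to the last of them held 4 further metal response cores. A share of all genes with that many matches was not computed for such a stretch. The stretch was not searched for the antioxidant response core or the STAT motif.

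In the WT retina all 3 metallothioneins were highest in MG-like cells among the 12 classes with at least 50 cells. The Mt1 level was 2102 CPM (interval 2053 to 2151), Mt2 was 373 CPM (352 to 394) and Mt3 was 217 CPM (201 to 233). In summed UMIs, ON cone bipolar-like cells came next for each gene, with 535 CPM for Mt1, 121 CPM for Mt2 and 103 CPM for Mt3. Their interval overlapped that of the class below for each gene. As a mean over cells they were at 392 CPM for Mt1 and 90.1 CPM for Mt2. Rod bipolar-like cells, at 438 and 118 CPM, and the cells of cluster 6, at 486 and 105 CPM, were then above them. Cone-like cells were at the end of each order, with 10.5 CPM for Mt1, 3.51 CPM for Mt2 and 4.21 CPM for Mt3, and overlapped with the class next above them for Mt2 and Mt3. The authors formed the clusters from the expression of these same cells, so differences between classes are a description.

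Within this order some neighbours could not be separated. For Mt1 in WT, the intervals of ON cone bipolar-like cells and cluster 6 overlapped, at 535 and 529 CPM. Cluster 6 was left unnamed, and its leading genes included Vsx1, a bipolar cell transcription factor, and Igfn1. Rod bipolar-like cells at 426 CPM overlapped with cluster 10 at 366 CPM, and the 2 OFF cone bipolar-like clusters overlapped with each other at 61.6 and 77.5 CPM. Rod-like cells, at 35.6 CPM, overlapped with the lower of these, and their interval did not reach that of cone-like cells. Mt1 thus ran over a wide range among bipolar classes, with the ON types above the OFF types in the WT library.

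High levels also occurred in classes of few cells. Astrocyte-like cells, of which 20, 88 and 33 were captured, had Mt1 levels of 4351, 4498 and 5387 CPM. This was above the MG-like level in WT, below it in the rd10-vehicle library, and overlapping with it in rd10-TMB. Their Mt3 levels were 611, 659 and 767 CPM, and in the rd10-vehicle library this was 181% of the MG-like level. Cells like retinal pigment epithelium, the layer behind the photoreceptors, numbered 13, 35 and 16 and had Mt1 levels of 8273, 12286 and 12400 CPM. The Mt1 interval of this class lay above that of MG-like cells in each library, and its Mt3 levels were 1576, 967 and 663 CPM. The retinal pigment epithelium-like class rests on 4 of 5 markers.

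**Figure D1:**
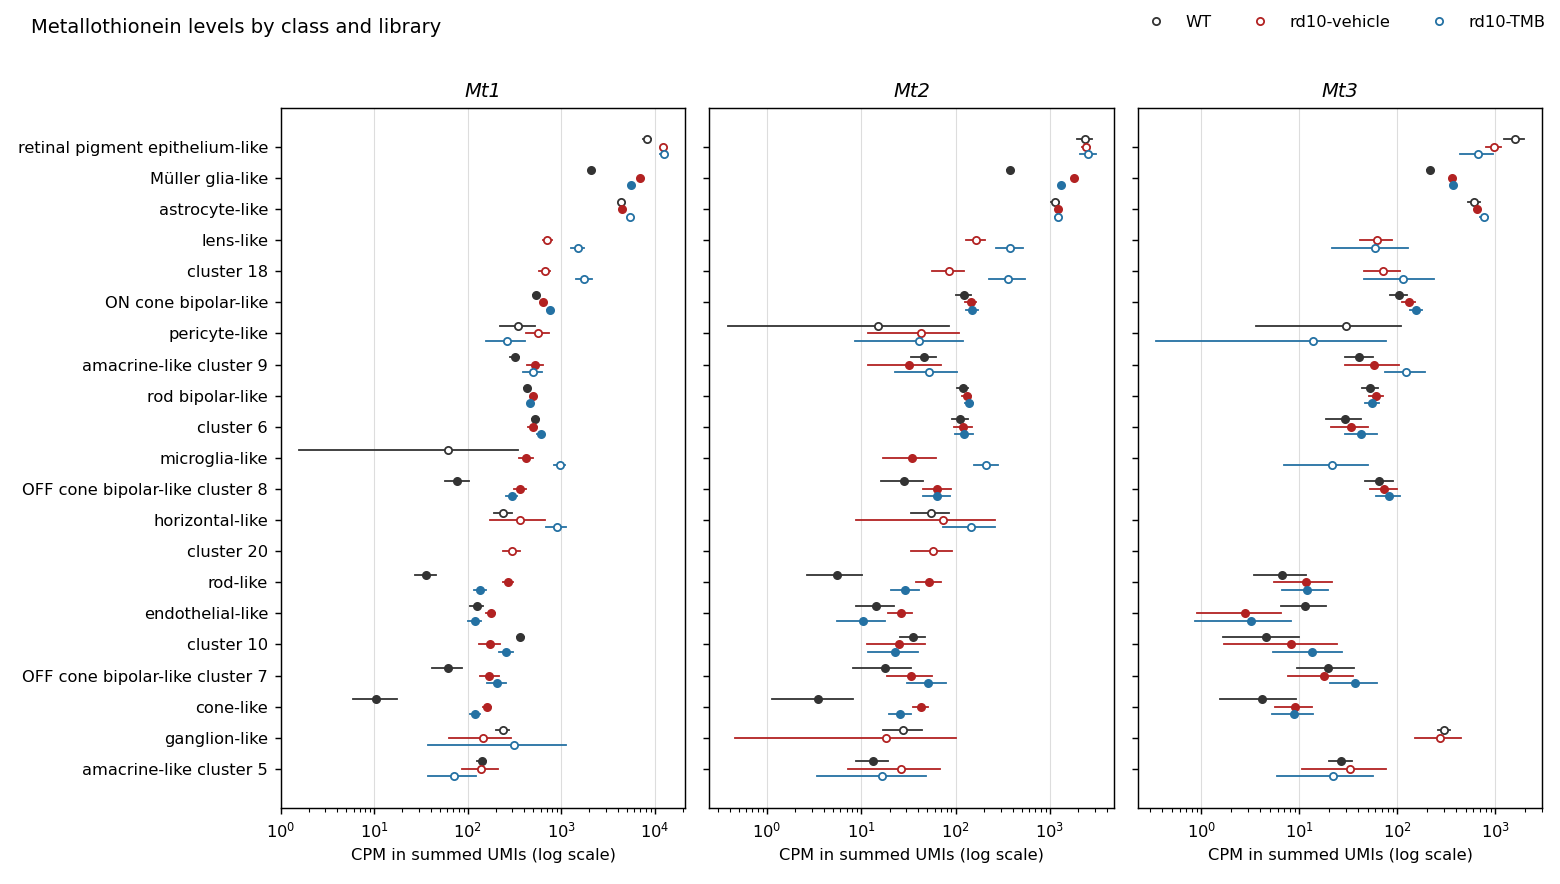
Levels of Mt1, Mt2 and Mt3 in CPM on a log axis, by class (rows) and library (colours), with 95% Poisson intervals as lines; hollow points rest on fewer than 50 cells, and points at 0 UMIs are not drawn. MG-like cells sit between 2102 and 6966 CPM for Mt1, while cone-like cells sit between 10.5 and 161 CPM.

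MG-like cells of both rd10 libraries had more Mt1 and Mt2 than those of WT, and Mt3 differed less. The Mt1 level was 2102 CPM (2053 to 2151), 6966 CPM (6931 to 7001) and 5594 CPM (5558 to 5629). The 3 intervals did not overlap, with WT lowest and rd10-vehicle highest. The Mt2 level was 373 CPM (352 to 394), 1814 CPM (1796 to 1832) and 1312 CPM (1295 to 1329). Its order was the same as that of Mt1, again with no overlap. The Mt3 level was 217 CPM (201 to 233), 364 CPM (356 to 372) and 367 CPM (358 to 376). The rd10 libraries overlapped for Mt3 and both lay above WT.

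The comparison of rd10-vehicle with WT asks how the degenerating retina differs from the healthy one. The log2 ratio of CPM was 1.73 for Mt1 (interval 1.69 to 1.76), 2.28 for Mt2 (2.20 to 2.37) and 0.75 for Mt3 (0.64 to 0.86). In fold terms Mt1 was 3.31 times, Mt2 4.86 times and Mt3 1.68 times the WT level. Members were counted where the level was at least 2-fold apart, the counting interval left out 1 and the gene had at least 200 UMIs over both libraries. By this rule 2 of 3 members, Mt1 and Mt2, were higher, against 2.98% of the 9589 genes measured. Ranked by ratio, Mt2 was in place 67 and Mt1 in place 113 of those genes, and Mt3 was in place 467.

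Against WT, the rd10-TMB library had log2 ratios of 1.41 for Mt1 (1.38 to 1.45), 1.81 for Mt2 (1.73 to 1.90) and 0.76 for Mt3 (0.65 to 0.87). Again Mt1 and Mt2 were past 2-fold and Mt3 was not, so 2 of 3 members counted, against 2.18% of 8801 genes. Both comparisons share the WT library. When the WT cells were limited to the 245 with Xist and no UMI of a Y-linked gene, the WT levels were 2261 CPM for Mt1, 364 CPM for Mt2 and 192 CPM for Mt3. These cells are the nearest match to the female rd10 libraries, and each ratio kept its side of 2-fold with them.

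The comparison of rd10-TMB with rd10-vehicle asks what the drug chow was associated with in rd10 mice. The log2 ratio was -0.32 for Mt1 (-0.33 to -0.30), -0.47 for Mt2 (-0.49 to -0.44) and 0.01 for Mt3 (-0.04 to 0.06). Mt1 was at 0.803 times and Mt2 at 0.723 times the rd10-vehicle level. Mt1 and Mt2 were lower by at least 1.2-fold, 2 of 3 members, against 6.05% of 10566 genes. The interval of the Mt3 ratio ran from 0.974 to 1.04 times. This held by a narrow margin for Mt1. With MG-like cells chosen by their summed markers in place of the deposited cluster, the Mt1 ratio was -0.25 and fell short of 1.2-fold, and Mt2 at -0.41 did not.

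**Figure D2:**
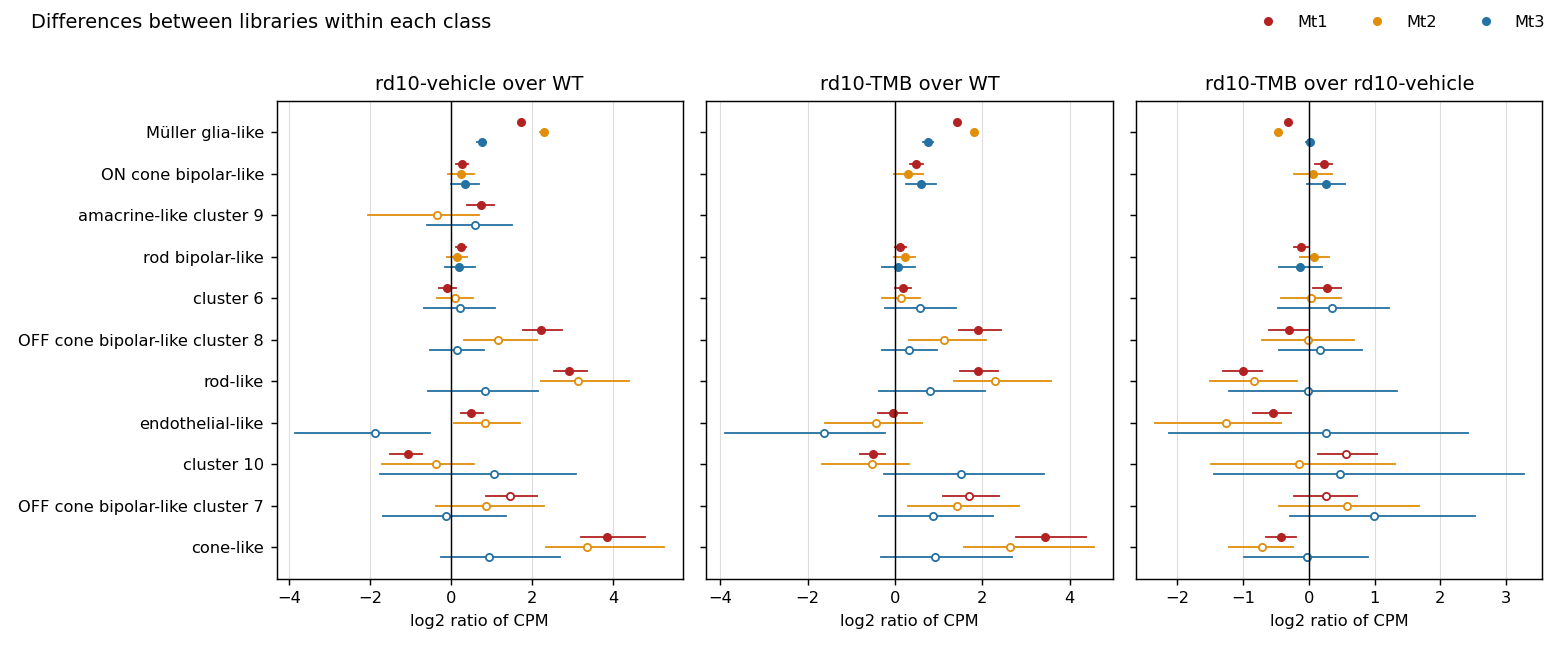
Log2 ratios of CPM between libraries for each class with at least 50 cells in both, with exact 95% counting intervals; hollow points have fewer than 200 UMIs over both libraries. In MG-like cells Mt1 and Mt2 lie at 1.73 and 2.28 for rd10-vehicle over WT and at -0.32 and -0.47 for rd10-TMB over rd10-vehicle.

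Levels in single MG-like cells were also compared at percentiles of each library. The median cell had 11.9, 48.5 and 33.8 Mt1 UMIs per 10000 UMIs. At the 10th percentile of cells the values were 2.40, 14.1 and 10.9, and at the 90th they were 42.4, 144 and 108. The rd10-vehicle value was 5.87 times that of WT at the 10th percentile and 3.39 times at the 90th. The rd10-vehicle value was above that of WT at each percentile compared from the 10th to the 90th, with the largest ratio at the 10th. These values were not thinned, and the WT cells were shallower. The WT value at the 10th percentile rests on few UMIs per cell, so where in the population the ratio is largest was not settled. For rd10-TMB over rd10-vehicle the ratio lay between 0.698 and 0.774 at the 10th, 25th, 50th, 75th and 90th percentiles, which leaves out the highest cells. The Mt2 median was 1.54, 11.2 and 7.31 UMIs per 10000, and the Mt3 median was 1.38, 3.04 and 3.02.

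After each cell was thinned to 1000 UMIs, the share of MG-like cells with a Mt1 UMI was 67.6% (63.4 to 71.5), 93.1% (92.0 to 94.1) and 90.6% (89.1 to 92.0). Without thinning the shares were 94.5%, 99.8% and 99.3%. Thinning left out 3, 16 and 21 cells of the 3 libraries that held fewer UMIs. For Mt2 the thinned shares were 22.2%, 65.3% and 54.2%, and for Mt3 they were 16.1%, 29.3% and 29.9%. The unthinned shares were 58.5%, 96.5% and 93.5% for Mt2 and 57.5%, 85.4% and 85.8% for Mt3. Between the rd10 libraries the thinned intervals overlapped for Mt3 and were apart for Mt2, while those of Mt1 were apart by a narrow margin.

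**Figure D3:**
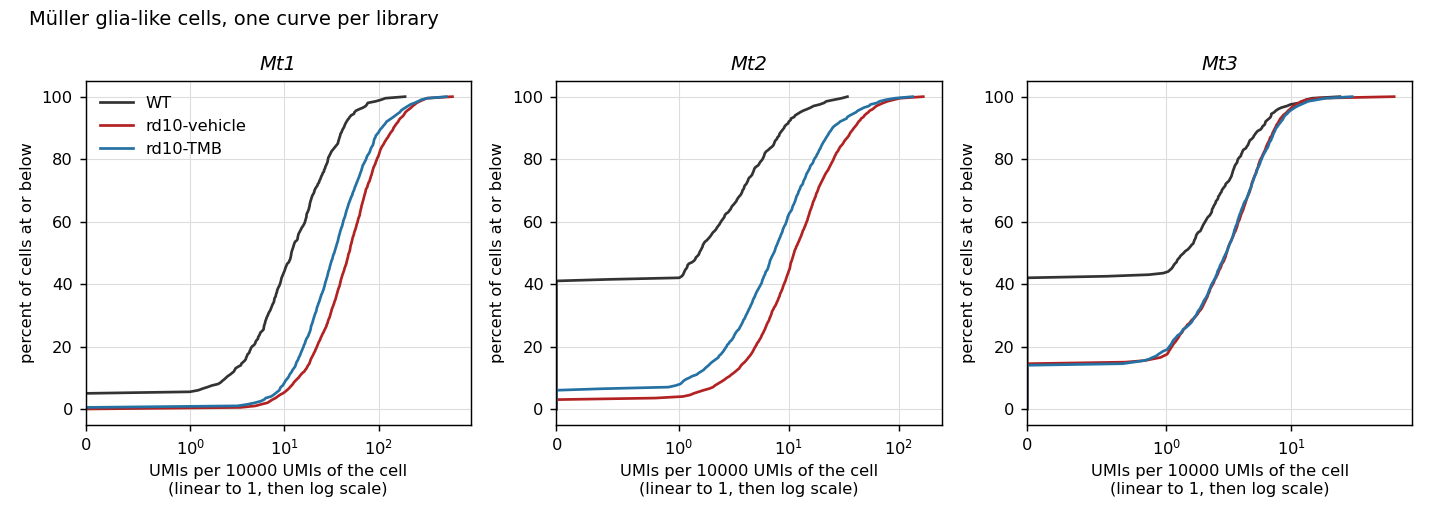
Share of MG-like cells (percent) at or below a given number of UMIs per 10000 UMIs of the cell, for Mt1, Mt2 and Mt3, with 1 curve per library; the horizontal axis is linear up to 1 and logarithmic beyond. The Mt1 median is 11.9 for WT, 48.5 for rd10-vehicle and 33.8 for rd10-TMB, and the rd10 curves of Mt3 lie on each other.

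Mt1 and Mt2 also varied together from cell to cell, and the correlations with Mt3 were weak. Across thinned MG-like cells, Pearson's r of Mt1 with Mt2 was 0.33 (527 cells), 0.57 (2476 cells) and 0.54 (1727 cells). Mt3 had r of 0.08 with Mt1 and 0.06 with Mt2 in rd10-vehicle. These cells share a library and were set to equal depth, Mt3 counts were sparse, and the values are a description.

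The balance between the members differed between libraries as well. For each Mt2 UMI, MG-like cells had 5.64 (5.30 to 5.99), 3.84 (3.80 to 3.88) and 4.26 (4.20 to 4.33) Mt1 UMIs. The intervals did not overlap, and rd10-TMB was between the others. For each Mt3 UMI there were 9.70, 19.1 and 15.2 Mt1 UMIs.

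The depth of the cells moved with these levels. The median MG-like cell had 6300, 8593.5 and 9454.5 UMIs, and in WT the Mt1 level was higher in the deeper cells. In WT, Mt1 was at 1533 CPM in cells under 5000 UMIs, 1926 CPM in cells of 5000 to 10000 and 3770 CPM in the 37 cells of 10000 to 20000. In the same windows it was 5306, 6218 and 8290 CPM for rd10-vehicle and 4319, 4318 and 6312 CPM for rd10-TMB. Within each of these windows, WT was the lowest library and rd10-vehicle the highest for Mt1 and Mt2. The log2 ratio of Mt1 in rd10-vehicle to WT was 1.79, 1.69 and 1.14 from the lowest window to the highest, and that of Mt2 was 2.22, 2.30 and 1.51. For rd10-TMB over WT it was 1.49, 1.16 and 0.74 for Mt1 and 1.66, 1.62 and 0.92 for Mt2. Both were thus under 2-fold in the window of 10000 to 20000 UMIs, where WT had 37 cells.

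Between the rd10 libraries, Mt1 had log2 ratios of -0.30, -0.53 and -0.39 of rd10-TMB over rd10-vehicle in the same windows and Mt2 had -0.55, -0.68 and -0.59. In cells of 20000 UMIs or more, of which rd10-TMB held 39 and rd10-vehicle 53, Mt1 was at 0.04 and Mt2 at -0.08. Mt3 had 0.43, -0.11 and -0.00 in the first 3 windows, so its sign was not the same throughout. The window of 5000 to 10000 UMIs, which holds most rd10-vehicle cells, gave a log2 ratio of Mt1 over 1.5 times as large as that of the whole class. These windows were added after the data were seen.

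**Figure D4:**
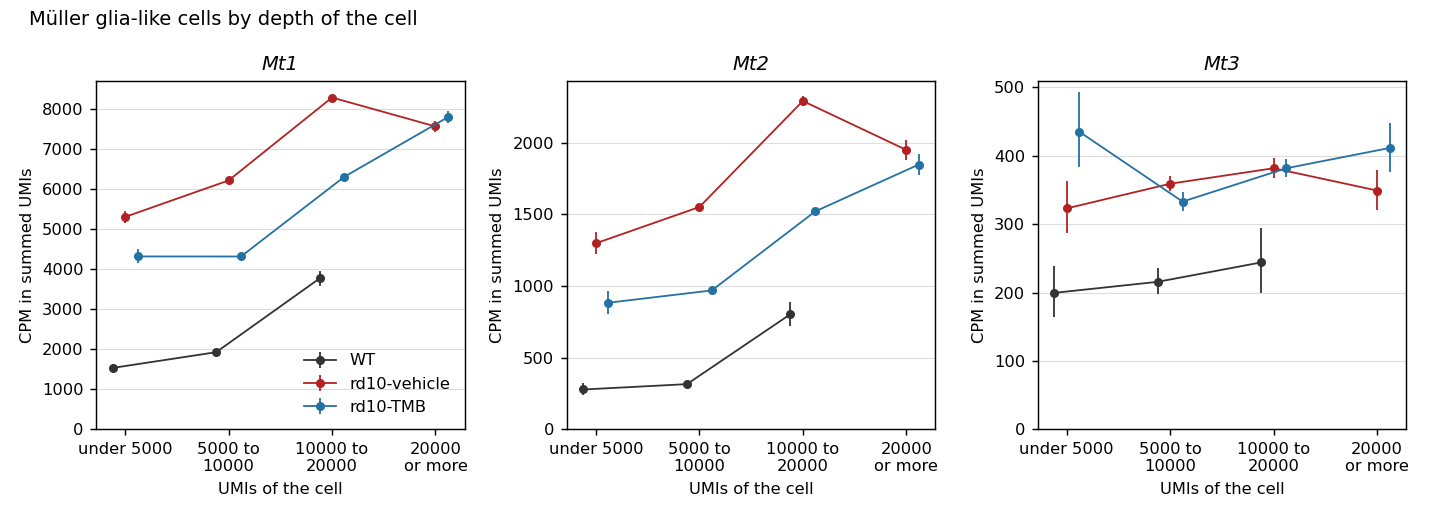
CPM of Mt1, Mt2 and Mt3 in MG-like cells by the number of UMIs of the cell, with 95% Poisson intervals as bars; WT had no cell with 20000 UMIs or more. WT lies lowest in each window for all 3 genes, and rd10-vehicle lies above rd10-TMB for Mt1 and Mt2 in the first 3 windows.

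MG-like cells were also divided by whether they held a UMI of Lcn2, which encodes lipocalin 2, a secreted iron-siderophore binding protein of reactive glia. Such cells made up 1.70% (9 cells), 26.2% and 17.2% of MG-like cells, and they were deeper, with medians of 10475, 10153 and 11722 UMIs against 6271, 8175 and 9064.5. The Mt1 level with a Lcn2 UMI was 6276, 8866 and 8863 CPM, and without one it was 1975, 6005 and 4549 CPM. Between the rd10 libraries, the log2 ratio of Mt1 was -0.00 with a Lcn2 UMI (-0.02 to 0.02) and -0.40 without (-0.42 to -0.39), and that of Mt2 was -0.17 and -0.53. Without a Lcn2 UMI, Mt1 in rd10-vehicle was 1.60 above WT on the log2 scale and Mt2 was 2.17 above. With one, against the 9 WT cells, these ratios were 0.50 and 0.63, and those of rd10-TMB were 0.50 and 0.47, all under 2-fold. Whether the ratio differs between the kinds of cell beyond depth was not tested.

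The share of MG-like cells moves any total taken over all cells. They held 56.5% of the Mt1 UMIs in WT and 92.3% in each rd10 library. Their share was 51.6%, 92.9% and 92.6% of the Mt2 UMIs and 44.2%, 83.4% and 86.1% of the Mt3 UMIs. Over all cells, Mt1 was at 654, 4527 and 3483 CPM, a wider gap from WT than within the MG-like class. In such totals, more cells of a type and more RNA per cell cannot be told apart.

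Metallothionein UMIs in neurons were read beside 12 MG markers, since RNA freed from broken cells enters droplets of other types. In rod bipolar-like cells of WT, Mt1 was at 20.3% of its MG-like level, Mt2 at 31.8% and Mt3 at 24.4%. The 12 markers were at 0.0361% to 2.24% of theirs, so each member was above the highest of them. In ON cone bipolar-like cells of WT the members were at 25.5%, 32.5% and 47.8%, and the markers were between 0.184% and 2.82%. Rod bipolar-like cells, ON cone bipolar-like cells and cluster 6 were above the highest marker for all 3 members in each of the 3 libraries. So was OFF cone bipolar-like cluster 8 for Mt1 and Mt3.

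Photoreceptors were different. In rod-like cells Mt1 was at 35.6, 271 and 135 CPM, which was 1.69%, 3.89% and 2.40% of the MG-like level. The highest marker there was Dbi in each library, at 1.97%, 3.86% and 3.45%. Mt1 was thus within the marker range or, in the rd10-vehicle library, just past its end. Mt3 was at 3.08% in WT rod-like cells, past that range, on 12 UMIs. In cone-like cells Mt1 was at 10.5, 161 and 121 CPM, or 0.501%, 2.32% and 2.16% of the MG-like level. The highest marker in these cells was Clu in each library, at 5.01%, 5.33% and 6.32%. The median marker was lower, at 0.708%, 1.70% and 1.36% in rod-like and 0.321%, 0.853% and 0.964% in cone-like cells. In rod-like cells 1, 0 and 1 of the 12 markers were above Mt1, and in cone-like cells 4, 2 and 2 were. The summed level of the 12 markers was also higher in rd10 there, at 344, 891 and 757 CPM in rod-like and 400, 894 and 848 CPM in cone-like cells. The part of free RNA in the photoreceptor values was not tested.

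The ratio of members was also set beside that of MG-like cells, as a description. In rd10-vehicle, rod-like cells had 23.3 Mt1 UMIs for each Mt3 UMI (12.4 to 49.2) and cone-like cells 18.0 (11.8 to 28.7), both overlapping the 19.1 of MG-like cells (18.7 to 19.6). Rod bipolar-like cells had 8.22 (6.97 to 9.75) and ON cone bipolar-like cells 4.90 (4.18 to 5.76), which did not overlap it, while cluster 6 had 14.8 (9.69 to 23.6), which did. In WT, rod bipolar-like cells had 8.05 (6.56 to 9.96), overlapping the 9.70 of MG-like cells (8.99 to 10.5), and ON cone bipolar-like cells had 5.17 (4.21 to 6.40), which did not overlap it. For Mt1 UMIs per Mt2 UMI in rd10-vehicle, rod bipolar-like cells at 3.85 (3.41 to 4.34) and ON cone bipolar-like cells at 4.47 (3.84 to 5.22) overlapped MG-like cells. The ratios therefore did not separate bipolar from MG-like cells in each pair and library. In WT, OFF cone bipolar-like cluster 8 had 1.18 Mt1 UMIs per Mt3 UMI (0.754 to 1.84), the lowest of 11 classes, and cluster 10 had 80.2 on 6 Mt3 UMIs (36.6 to 220), the highest. In rd10-vehicle the OFF cone bipolar-like cluster had 4.98 (3.53 to 7.17).

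**Figure D5:**
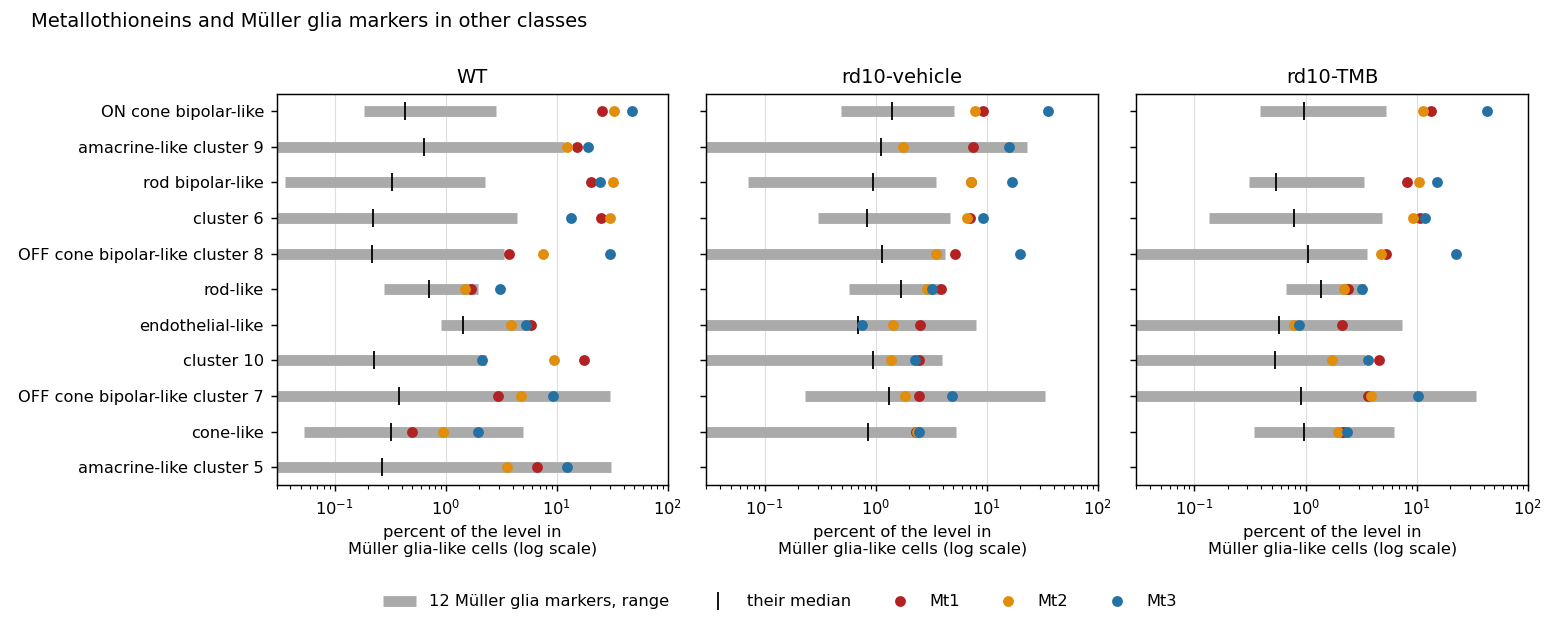
Level of Mt1, Mt2 and Mt3 in each class as a percent of the level in MG-like cells of the same library (log axis), beside the range (grey) and median (tick) of 12 MG markers; ranges that reach 0 are drawn to the left edge. In rod bipolar-like cells of WT the members lie at 20.3% to 31.8% and the markers at 2.24% or less, while in cone-like cells the members lie inside the marker range.

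In rod bipolar-like and ON cone bipolar-like cells, which were above the marker range, Mt1 was within 2-fold between libraries. Rod bipolar-like cells had 426, 503 and 462 CPM, and ON cone bipolar-like cells had 535, 641 and 748 CPM. The log2 ratio of rd10-vehicle to WT was 0.24 (0.11 to 0.37) in rod bipolar-like and 0.26 (0.11 to 0.41) in ON cone bipolar-like cells. The second value was 0.64 as a mean over cells and 0.10 against the WT cells that held Xist but no Y-linked UMI. Mt2 was at 119, 131 and 139 CPM in rod bipolar-like cells, and its ratio of rd10-vehicle to WT was 0.14 with an interval that held 0. Mt3 in ON cone bipolar-like cells was at 103, 131 and 156 CPM, and for rd10-TMB over WT its log2 ratio was 0.59 (0.26 to 0.94). That ratio was 1.05 as a mean over cells and 1.07 after thinning, both past 2-fold. With summed UMIs, none of the members was past 2-fold in these 2 classes, where 0.343% and 0.165% of genes were higher by that much in rd10-vehicle than in WT, and 0.313% and 0.13% in rd10-TMB than in WT.

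Outside MG-like cells, Mt1 was past 2-fold for rd10-vehicle over WT in 4 of 9 other classes with enough UMIs. It was higher in rod-like, cone-like and OFF cone bipolar-like cluster 8, with log2 ratios of 2.91, 3.85 and 2.21, where 1.25%, 0.403% and 0.197% of genes were that much higher. In rod-like and cone-like cells the summed marker level was higher in rd10 too, as above. It was lower in cluster 10, whose leading genes included Cck, a neuropeptide gene, and Lamp5, with 366, 171 and 256 CPM. The log2 ratio there was -1.08 (-1.50 to -0.71), and 4.47% of genes were lower by 2-fold. It did not hold past 2-fold after thinning, at -0.16 with an interval that held 0, as a mean over cells, at -0.91, or against WT cells with Xist, at -0.72. In OFF cone bipolar-like cluster 8, Mt1 was at 77.5, 364 and 294 CPM, and the rd10 intervals lay above that of WT. That was 3.69%, 5.22% and 5.26% of the MG-like level, against 3.32%, 4.21% and 3.58% for the highest marker. The summed marker level was higher in rd10 there as well, at 293, 665 and 562 CPM, and its part in the Mt1 ratio was not tested. Mt2 in rd10-vehicle, at 3.53%, was within the marker range. Mt2 and Mt3 had enough UMIs in 2 other classes and were past 2-fold in 0 of them.

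Between the rd10 libraries, Mt1 was past 1.2-fold in 5 of 7 other classes with enough UMIs. It was lower in rod-like cells at -1.01, cone-like cells at -0.42, OFF cone bipolar-like cluster 8 at -0.31 and endothelial-like cells at -0.55, where 5.23%, 3.92%, 3.89% and 6.38% of genes were that much lower. The summed marker level of rod-like cells, cone-like cells and OFF cone bipolar-like cluster 8 was also lower in rd10-TMB. In endothelial-like cells the markers went the other way, from 1514 CPM with vehicle to 1604 with TMB. Mt1 of endothelial-like cells was within the marker range in both rd10 libraries. In WT it was just past the range, at 5.90% of the MG-like level against 5.75% for the highest marker. In cluster 6 Mt1 was higher, at 0.28 (0.07 to 0.49), where 5.13% of genes were that much higher. The summed marker level of cluster 6 was lower, from 636 CPM with vehicle to 589 with TMB. The part of the markers in these ratios was not tested. After thinning to 1000 UMIs per cell, 2 ratios met the whole rule, those of rod-like cells at -1.04 and cone-like cells at -0.81. Cluster 6 and endothelial-like cells stayed at least 1.2-fold apart in the same directions without meeting the rest of the rule. With vehicle and then TMB, their thinned Mt1 levels were 494 and 648 CPM in cluster 6 and 147 and 110 CPM in endothelial-like cells. For rd10-TMB over WT, Mt1 was higher past 2-fold in rod-like, cone-like and OFF cone bipolar-like cluster 8, where 0.679%, 0.337% and 0.0894% of genes were.

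Genes that act around metallothioneins were counted in MG-like cells by the same rules, over 6 lists with 78 genes. For rd10-vehicle over WT, 70 listed genes had enough UMIs, of which 12 were higher and 1 was lower, against 2.98% and 1.05% of all genes, with a median log2 ratio of 0.11 against -0.05 for all genes. None of 16 zinc genes and none of 9 copper genes was past 2-fold. Mtf1, which senses zinc and drives Mt1 and Mt2, was at 19.3, 22.1 and 21.6 CPM, and its log2 ratio of rd10-vehicle to WT was 0.18 (-0.18 to 0.59). The median of the zinc list was -0.25. In rd10-TMB over WT, 10 of 67 listed genes were higher and 0 lower, against 2.18% and 0.534% of all genes.

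The STAT3 list held most of the genes past 2-fold, with 8 of 11 higher, against 2.98% of all genes, and a median log2 ratio of 1.78. Stat3, the transcription factor downstream of the LIF and IL-6 family of cytokines, was at 47.9, 109 and 83.4 CPM. Timp1, a metalloproteinase inhibitor, was at 2.11, 87.1 and 46.5 CPM, with a log2 ratio of 5.18 (4.32 to 6.68) for rd10-vehicle over WT. Serpina3n, a serine protease inhibitor of reactive glia, was at 18.7, 325 and 184 CPM. Lif, the cytokine itself, was at 2.11, 10.9 and 8.17 CPM on 7 WT UMIs, and Socs3, a feedback inhibitor of the pathway, was at 280, 1181 and 1176 CPM. Earlier analyses of these libraries had drawn attention to such genes, so the list is no independent support.

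Between the rd10 libraries, 7 of 12 STAT3-list genes were at least 1.2-fold lower in rd10-TMB and none was higher, against 6.05% and 3.26% of all genes, with a median of -0.35 against -0.02 for all genes. The log2 ratio was -0.90 for Timp1, -0.82 for Serpina3n, -0.69 for Bcl3, a nuclear cofactor of NF-kappa-B, and -0.58 for Osmr, the oncostatin M receptor. Stat3 was at -0.39 (-0.48 to -0.29). Socs3 did not follow, at -0.01 (-0.03 to 0.02).

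The other lists held fewer such genes. Of 9 iron genes, 2 were higher in rd10-vehicle than in WT, against 2.98% of all genes. They were Hmox1, which encodes the haem-degrading enzyme haem oxygenase 1, and Trf, which encodes the iron carrier transferrin. Hmox1 was at 1.81, 15.3 and 14.8 CPM, on 6 WT UMIs. Trf was at 319, 1107 and 705 CPM, and the rd10 libraries differed by a log2 ratio of -0.65 (-0.68 to -0.62). Of 15 NRF2 genes, Srxn1, which encodes the antioxidant enzyme sulfiredoxin, was past 2-fold, against 2.98% of all genes. It was at 11.1, 30.5 and 23.7 CPM. Nfe2l2, which encodes NRF2, had a log2 ratio of -0.17 (-0.35 to 0.02) for rd10-vehicle over WT. In the comparison of the rd10 libraries, Slc7a11, a cystine transporter gene, was higher at 0.27, and Srxn1 and Gsr, the glutathione reductase gene, were lower at -0.36 and -0.30. Of all genes, 3.26% were higher and 6.05% lower by the same rule.

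Glucocorticoid-responsive genes lay on both sides. Nr3c1, the glucocorticoid receptor gene, was at 116, 113 and 120 CPM. Sgk1, a kinase gene, was at 14.2, 46.2 and 40.3 CPM, while Tsc22d3, which encodes the glucocorticoid-induced leucine zipper protein, was at 51.5, 17.0 and 31.9 CPM. The Tsc22d3 log2 ratio was -1.60 for rd10-vehicle over WT and 0.91 for rd10-TMB over rd10-vehicle, opposite in sign to Mt1 and Mt2 in both comparisons. Zbtb16, a zinc finger factor, was at 0.42 in the second comparison, and Cdkn1a, a cell cycle inhibitor gene, and Klf9, a Krüppel-like factor gene, were at -0.63 and -0.28.

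Between the rd10 libraries, 3 of 16 zinc genes were lower with TMB by at least 1.2-fold, against 6.05% of all genes. Slc39a14, a zinc importer, was at -0.35, Slc30a7, a zinc transporter of the Golgi, at -0.33 and Slc30a1, the zinc exporter of the cell membrane, at -0.27. Of 9 copper genes, Slc31a2, a copper transporter gene, was lower at -0.31 (-0.42 to -0.21). Over all lists 3 genes were higher and 16 lower of 71, against 3.26% and 6.05% of all genes.

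The genes with the pattern most like each member were found over 35 points, each a class in a library with at least 50 cells, among 11388 genes. Mt2 was most like Mt1, with Pearson's r of 0.945 of log2(CPM + 10), and Mt3 was in place 7 at 0.803. After Mt2 came Nudt4, which encodes an inositol pyrophosphate hydrolase, at 0.838, Fuca1, a lysosomal fucosidase gene, at 0.812, Chadl at 0.810 and Timp2, a metalloproteinase inhibitor gene, at 0.808. Mt2 was followed by Mt1, Mt3 at 0.874, Nudt4 at 0.849, Rida at 0.830 and F3, the tissue factor gene, at 0.819. Mt3 was nearest to Mt2, then to Ptch1, the Hedgehog receptor gene, at 0.847, Myh14, a myosin gene, at 0.834, Ddr1, a collagen receptor gene, at 0.817 and Cdon, a Hedgehog co-receptor gene, at 0.812. The points share libraries and clusters, so these values are a description with no p.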

How the data were processed

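Retinal cells of 3 groups were profiled with 10x Genomics v3 chemistry, 1 pooled library per group, and samples were grouped by their labels. Per the study's methods, the authors made reads with bcl2fastq, aligned them to mm10 with Cell Ranger 6.0.1 under default settings, combined matrices with Cumulus, removed doublets with Scrublet, kept cells with at least 500 genes in Seurat 3.2.2 and clustered them after Harmony correction. Values in the deposited matrix are on a natural log scale, ln(1 + x), where x is a gene's UMIs per 10000 of its cell, and the deposited cell table holds UMI counts and gene counts per cell. Of 32620606 entries, 100% came back as whole UMIs within 0.001, and sums matched the deposited totals in 15242 of 15242 cells. The depth was 18882951 (WT), 37002532 (rd10-vehicle) and 29192530 (rd10-TMB) UMIs. PCR and capture add error that the intervals do not hold.

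Clusters were named from 126 marker entries. A marker counted at 20 CPM and 2-fold over the other cells, and a name needed 3 markers and more markers than any other type in its top 10 genes or, where no type with 3 markers had any there, no other type with 3. The ON cone bipolar-like cluster was named by the second way, with 7 of 8 markers and 0 in its top 10. Clusters numbered 6, 10, 18 and 20 stayed unnamed. No doublet caller was run here. Sums of UMIs were taken within a class and library, and log2 ratios had a pseudocount of 1 UMI. Sums carry exact Poisson, shares exact Clopper-Pearson and ratios exact conditional intervals at 95%. Cells are not replicates, so no p-value was computed, and the authors' test over cells was not used. Thinning drew 1000 UMIs per cell with a fixed seed. The scripts were tested on simulated counts.

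Members and lists were chosen with earlier results of these data known. Named genes were the members, up to 4 genes per list and comparison with the largest ratio past the fold, the regulators Mtf1, Nfe2l2, Nr3c1 and Stat3, and the 5 genes most like each member. The rd10 change is a point mutation, which 3′ tags do not show, so the genotype was not checked. Positions come from GENCODE and RefSeq annotations of GRCm38, the assembly behind mm10. Alternatives covered scaling, cell filters, depth, pseudocount, the MG class, WT sex, UMI minimum and fold. Analyses used numpy 2.4.6, scipy 1.17.1 and pandas 2.3.3.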

Additional observations from a re-analysis of the deposited data

Results flagged for a closer look

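Mt1 stood on opposite sides of the fold in different classes for the same pair of libraries. For rd10-vehicle over WT its log2 ratio was 3.85 in cone-like cells and -1.08 in cluster 10. The cone-like value rests on 15 WT UMIs and lies within the range of MG markers. The cluster 10 value rests on 481 WT and 62 rd10-vehicle UMIs, and the Mt1 level there was 17.4% of the MG-like level in WT and 2.46% in rd10-vehicle, with markers up to 2.32% and 3.92%. After thinning it was -0.16. For rd10-TMB over rd10-vehicle the log2 ratio was 0.28 in cluster 6 and -1.01 in rod-like cells. With 1 library per group, the differences between these classes were not tested.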

How the results depend on the processing

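No paired analysis was possible because each group has 1 library. Of 87 alternatives to the 9 MG-like ratios, 84 kept the sign. The exceptions were for Mt3 in rd10-TMB over rd10-vehicle, whose interval held 0. Values that left the counting interval follow, as log2 ratios, with the causes not tested. For rd10-vehicle over WT, Mt1 was 1.77 with median-of-ratios size factors, 1.82 as the mean over cells, 1.88 without the 5% of cells with the most UMIs, 1.77 after thinning, 1.54 in cells chosen by summed markers, 1.62 against the WT cells that held Xist but no Y-linked UMI and 1.69 in cells of 5000 to 10000 UMIs, a window chosen after seeing the data. Mt2 was 2.48 without the deepest cells and 1.99 by summed markers. Mt3 was 0.87 after thinning, 0.57 by summed markers and 0.92 against the WT cells with Xist. For rd10-TMB over WT, Mt1 was 1.45 as the mean over cells, 1.48 without the deepest cells, 1.29 by summed markers, 1.31 against the WT cells with Xist and 1.16 at 5000 to 10000 UMIs. Mt2 was 1.91 without the deepest cells, 1.58 by summed markers and 1.62 at 5000 to 10000 UMIs, and Mt3 was 0.60, 0.93 and 0.62 by summed markers, against the WT cells with Xist and at 5000 to 10000 UMIs. For rd10-TMB over rd10-vehicle, Mt1 was -0.30 with totals without mitochondrial and ribosomal protein genes, -0.37 as the mean over cells, -0.40 without the deepest cells, -0.36 after thinning, -0.25 by summed markers and -0.53 at 5000 to 10000 UMIs. Mt2 was -0.52, -0.57, -0.50, -0.41 and -0.68 as the mean over cells, without the deepest cells, after thinning, by summed markers and at 5000 to 10000 UMIs, and Mt3 was -0.11 at 5000 to 10000 UMIs.

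The log2 ratio of Mt1 in MG-like over rod bipolar-like cells of WT was 2.30 and became 2.12 after thinning and 2.10 as the mean over cells. Without thinning, the share of MG-like cells with a UMI in WT, rd10-vehicle and rd10-TMB was 94.5%, 99.8% and 99.3% for Mt1, 58.5%, 96.5% and 93.5% for Mt2 and 57.5%, 85.4% and 85.8% for Mt3. With a 1.5-fold limit, the listed genes past the fold went from 13 to 23 for rd10-vehicle over WT, from 10 to 17 for rd10-TMB over WT and from 19 to 6 for rd10-TMB over rd10-vehicle. Ratios of the members past the fold in other classes for rd10-TMB over rd10-vehicle went from 5 to 2 after thinning. Of those lost, Mt1 in cluster 6 and in endothelial-like cells stayed at least 1.2-fold apart without meeting the rest of the rule. By Spearman's rho, 2 of the 5 genes most like Mt2 and 3 of the 5 most like Mt3 stayed. In the other classes, 612 of 645 alternatives kept the sign and no ratio past the fold changed it. Of the 645, 615 stayed within the counting interval, 20 moved away from 0 and 10 toward it. Many members in small classes rest on fewer than 200 UMIs, and 1 library per group leaves the spread between mice unknown.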

Other observations

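Classes with few cells gave values that entered no comparison. In microglia-like cells, the resident immune cells, Mt1 was at 419 CPM in the 52 cells of rd10-vehicle and 966 CPM in the 30 cells of rd10-TMB, and WT had 1 Mt1 UMI in 6 cells. As a mean over cells it was 392 and 651 CPM in the rd10 libraries, and the thinned share of cells with a Mt1 UMI was 44.2% and 26.7%, in the other order. In 52 microglia-like cells of rd10-vehicle, 0 Mt3 UMIs were found, which allows up to 9.30 CPM at the limit of 3 UMIs, with 11.4 CPM as the upper end of the exact interval. In the 37 ganglion-like cells of WT, Mt3 was at 298 CPM and Mt1 at 236 CPM in summed UMIs, with overlapping intervals. As a mean over these cells the order was the other way, at 230 CPM for Mt3 and 272 CPM for Mt1. Horizontal-like cells had 0 Mt3 UMIs in each library, which allows up to 8.26 CPM at that limit in the 18 cells of WT, with 10.2 CPM as the upper end of the interval, while Mt1 was at 239 CPM there. Lens-like cells, found in the rd10 libraries, had Mt1 at 707 CPM in 18 cells of rd10-vehicle and 1497 CPM in 19 cells of rd10-TMB. Their median depths were far apart, at 20634 UMIs in rd10-vehicle and 3556 in rd10-TMB, so these cells may not be alike.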
